A study of Drosophila melanogaster with 3 samples.

Results

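The fourth chromosome of Drosophila melanogaster, called the dot chromosome for its small size, is described here through the genes for which isoforms were assembled from fly heads. Not all of these isoforms cover a whole gene. All isoforms of the deposited pooled assembly that lay on chromosome 4 and carried a FlyBase gene identifier were taken, which gave 44 genes and 59 isoforms of the 4059 genes and 4969 isoforms with an identifier in the whole assembly. The other 4015 genes and 4910 isoforms lay on chromosome arms 2L, 2R, 3L and 3R and on X. RNA came from heads of untreated adult wild-type flies (genotype w1118, 3 days old, raised at 25 °C), and the study asked how transcription start sites (TSSs) relate to exon choice and to alternative polyadenylation (APA). The 3 PacBio Iso-seq libraries, in which 1 read spans a cDNA from end to end, form 1 group with no treated or mutant group beside it. They were selected for transcripts above 3 kb and pooled before assembly, so the data hold exon positions on the dm6 genome but no abundance and no value per library.

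Chromosome 4 is known as an unusual autosome. Most of its gene-bearing arm carries the heterochromatin protein HP1 and is rich in transposable element (TE) remnants, as heterochromatin is, yet its genes are transcribed at levels like those of genes elsewhere. The chromosome-specific protein Pof binds along these genes, and meiotic crossing over on this chromosome is almost absent. An intron is removed from the primary transcript by splicing, so a long intron costs transcription but adds nothing to the mRNA. Many fly introns are close to the shortest length that the splicing machinery accepts.

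All comparisons below set chromosome 4 against the other chromosomes with 1 value per gene. The test was a two-sided Fisher's exact test of the number of genes above the median of all genes, or of the share of genes with a property, with an odds ratio and its exact 95% confidence interval (CI) and Benjamini-Hochberg adjustment over 14 tests. Shares have 95% Wilson intervals. The error is the spread over genes, which are not replicates of a condition, since pooling left no replicate error, and no depth per library is given in the sources used here. The heads were represented by isoforms of 8 of 8 photoreceptor genes, 3 of 4 glial, 2 of 5 neuronal, 2 of 3 muscle and 2 of 3 fat body genes looked for, while the 3 germline genes matched had none. Of the neuronal markers, elav, brp and para had no isoform.

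A larger share of the genes of chromosome 4 was represented. Isoforms were assembled for 44 of 80 annotated protein-coding genes of chromosome 4 (55%, CI 44.1 to 65.4), against 3985 of 13865 (28.7%, CI 28.0 to 29.5) on the other chromosomes. The odds ratio was 3.03 (CI 1.90 to 4.85, Fisher's exact test with Benjamini-Hochberg adjustment, adjusted p = 1.80e-05). The 5 other chromosome arms lay close together, between 28.3% and 29.1%, and all of them lay below the interval of chromosome 4.

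The share detected did not increase with annotated length on chromosome 4, with 2 of 2, 5 of 7, 3 of 7, 8 of 16 and 26 of 48 genes in 5 classes running from the shortest to the longest. On the other chromosomes it was 10.6% in the shortest class and 40.9% in the longest. The longest annotated transcript of the detected genes had a median of 3900 nt on chromosome 4 and 2203 nt elsewhere, and that of the undetected genes 3681 nt and 1493.5 nt. Detected and undetected genes of chromosome 4 both had a median of 9 annotated exons, against 4 and 3 elsewhere. Within 5 classes of annotated length the odds ratio was 2.11 (CI 1.32 to 3.41, exact conditional test, adjusted p = 0.00859). Among the genes of 3340 nt or more, 26 of 48 (54.2%) were detected on chromosome 4, against 40.9% elsewhere, and the interval of chromosome 4 (40.3 to 67.4%) contained the share of the others. Among genes of 894 to 1407 nt the shares were 5 of 7 (71.4%) and 22.8%.

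**Figure D1:**
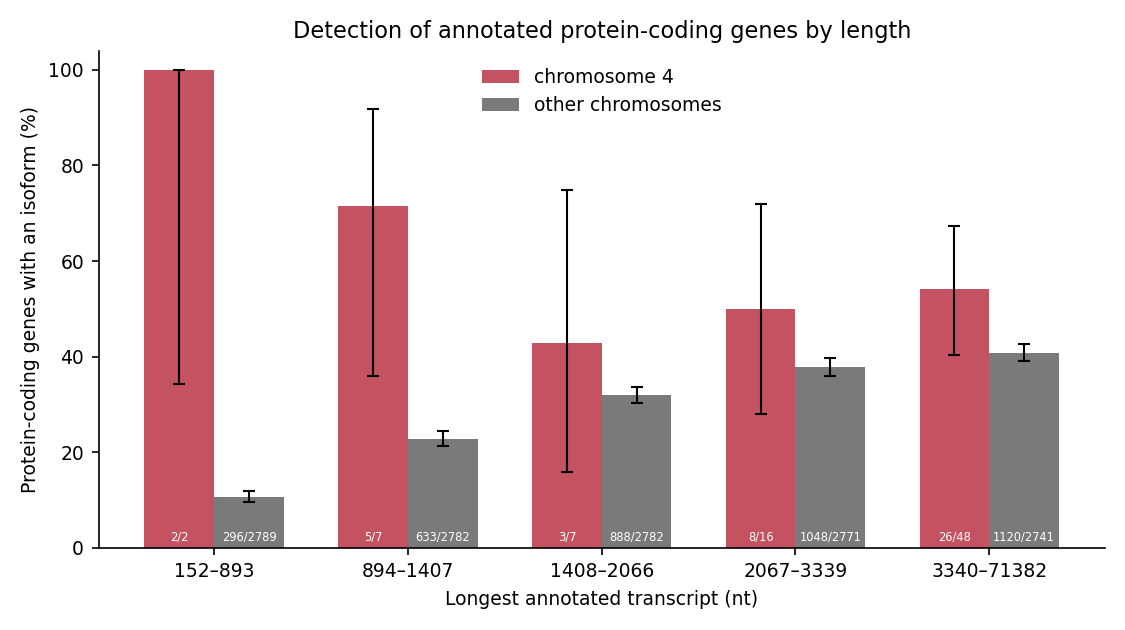
Share of annotated protein-coding genes with at least 1 isoform (y axis, %) in 5 classes of the longest annotated transcript (x axis, nt), for chromosome 4 (red, left) and the other chromosomes (grey, right); bars start at 0, error bars are 95% Wilson intervals, and detected over annotated genes are written in each bar. The red bars stand above the grey ones in each class, with 26 of 48 genes against 40.9% in the longest, and the classes with 2 and 7 genes of chromosome 4 have wide intervals.

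Detection was uneven along the chromosome. In consecutive windows of 250 kb, counted by the start of the gene, isoforms were found for 6 of 18, 5 of 14, 13 of 18, 7 of 10 and 13 of 20 annotated protein-coding genes, as a description without a test. Undetected in the first window were, among others, the Hedgehog pathway transcription factor ci and the Wnt pathway transcription factor pan. The eye selector gene ey lay undetected in the third window, whereas its paralogue toy was detected, in the window after it.

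By role, the genes of chromosome 4 were represented as follows. Of 17 genes listed as transcription factors and nuclear regulators, 8 had an isoform. They were toy, zfh2, Sox102F, Mitf, dati, Hcf, MED26 and Asator, and those without were ci, ey, pan, sv, fd102C, onecut, NfI, lgs and pho. Asator, counted on this list, encodes a kinase. Of 14 genes of synapse, calcium handling and axon guidance, 7 were found (unc-13, mGluR, Ephrin, Eph, PlexA, PlexB and Gat), and Syt7, Cadps, dpr7, CaMKI, PMCA, Ekar and Ank were not. CaMKII and Cals, both found, were not on this list, although they too are known from synapses. Of 6 signalling genes matched, 4 were found (Crk, Dyrk3, CG1909 and Slip1), without Actbeta and PIP4K. Of 5 genes of RNA and translation, 4 were found (gw, eIF4G1, RpS3A and Pur-alpha), all but 4E-T. Of 5 genes matched from a list of energy, proteostasis and muscle, 4 were found (ATPsynbeta, Rad23, bt and Zip102B), all but Kif3C. This list held the zinc transporter gene Zip102B, while the mitochondrial genes ND-49 and Mpv17, both found, were not on it. Symbols were matched exactly. Galphaf and Arf102F of the signalling list and Thd1 and Fis1 of the last list matched no annotated symbol on the chromosome. They were not counted, although such a gene may be present under another symbol. These lists were drawn up with earlier results of these data known, and the counts stand beside the 55% of all protein-coding genes of the chromosome.

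Genes of chromosome 4 had more exons. The isoform with most exons had a median of 6 exons (CI 5 to 8, range 1 to 16, n = 44 genes) on chromosome 4 and 4 on the other chromosomes, where each arm and X had the same median of 4. More than 4 exons were present in 32 of 44 genes (72.7%) of chromosome 4, against 42.1% of the others. The odds ratio was 3.67 (CI 1.83 to 7.84, Fisher's exact test with Benjamini-Hochberg adjustment, adjusted p = 0.00022). It was 5.54 with only isoforms that ended near an annotated 3′ end and 2.29 per isoform, and the call held in each. In the annotation alone, over all annotated protein-coding genes, it was 10.1 and passed as well. In the annotation, the same detected genes reached a median of 9 exons on chromosome 4 and 4 elsewhere.

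The genes with most exons cover different roles. eIF4G1, the scaffold of the cap-binding complex in translation initiation, and CaMKII, a calcium-dependent kinase of synaptic plasticity, had 16 exons each. Asator, a kinase related to tau-tubulin kinases, had 14, and the axon guidance receptor Eph 13. Cals, the calsyntenin of the synapse, had 12, and bt, which encodes the giant muscle protein projectin, had 11 in an isoform that covers only the beginning of the gene. gw, the GW182 protein of microRNA silencing, CG1909 and the GABA transporter Gat had 10 each. At 9 exons stood anne, Hcf, dati, mGluR, toy and Mitf. At the other end, Mpv17, a mitochondrial membrane protein gene, and CG11076 had a single exon, and RpS3A, mav and unc-13 had a single intron. The isoforms of Hcf, mav and unc-13 did not span a whole coding region, so their exon numbers are partial.

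Introns took up more of these genes. The summed introns of the isoform with most exons had a median of 3975 nt (CI 1745 to 5338, range 53 to 30154, n = 42 multi-exon genes) on chromosome 4 and 896 nt on the other chromosomes. Of the genes of chromosome 4, 34 of 42 (81.0%) lay above the median of all genes, against 49.6% of the others. The odds ratio was 4.31 (CI 1.95 to 10.8, Fisher's exact test with Benjamini-Hochberg adjustment, adjusted p = 0.000178). Arm and X medians of the others ranged between 775 and 1090 nt, all below the CI of chromosome 4. The odds ratio was 2.38 per isoform and 2.76 at the upper quartile, and the call held in each. In the annotation alone, over all annotated protein-coding genes, it was 25.7 and passed as well.

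The longest intron of a gene was longer on chromosome 4 at the median but not at the upper quartile. It had a median of 1646.5 nt on chromosome 4 and 614 nt elsewhere, with 34 of 42 genes above the common median, an odds ratio of 4.31 (CI 1.95 to 10.8) and an adjusted p of 0.000178 by Fisher's exact test. At the upper quartile of all genes the direction turned, with 23.8% of the genes of chromosome 4 and 25.0% of the others above it (odds ratio 0.938, CI 0.410 to 1.965, Fisher's exact test, adjusted p = 1). Per isoform the odds ratio was 2.19, and over all annotated protein-coding genes 39.0.

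Counted as distinct introns, 271 on chromosome 4 had a median of 228 nt and 15745 elsewhere had a median of 89 nt. Introns under 80 nt made up 36.9% (CI 31.4 to 42.8) on chromosome 4 and 47.8% elsewhere. Introns from 80 to under 1000 nt made up 41.0% and 32.04%, and those from 1000 to under 10000 nt 20.7% and 16.7%. Introns of 10000 nt or more numbered 4 (1.48%, CI 0.575 to 3.73) on chromosome 4 and 549 (3.49%) elsewhere. The longest intron measured 24531 nt on chromosome 4, in Sox102F, and 189627 nt on another chromosome. Introns of a gene are not independent of each other, and these shares are a description.

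**Figure D2:**
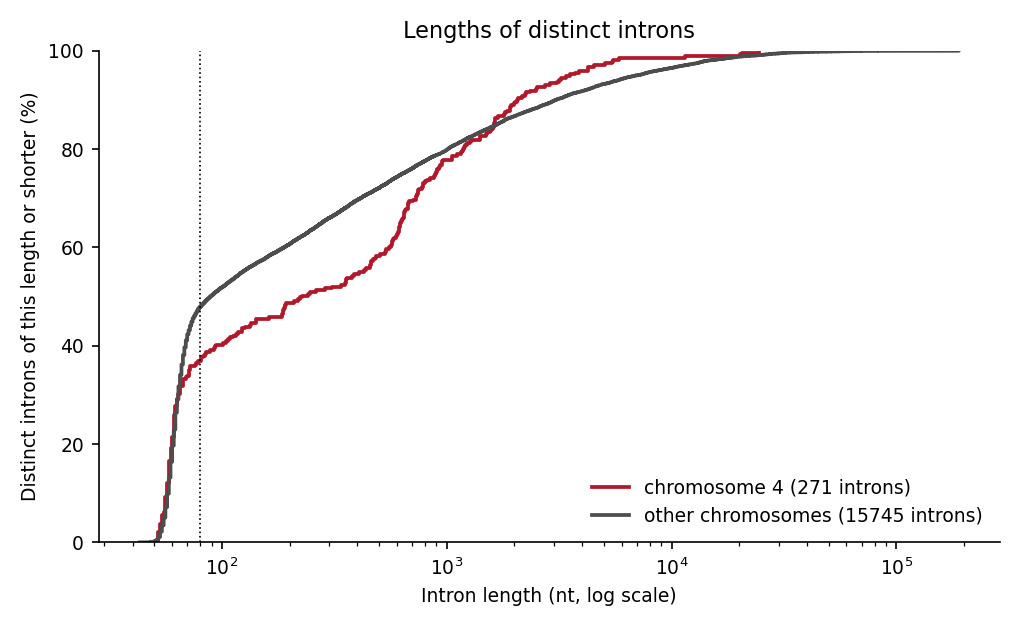
Cumulative share of distinct introns (y axis, %) by intron length (x axis, nt, log scale) for 271 introns of chromosome 4 (red) and 15745 of the other chromosomes (grey); the dotted line marks 80 nt. At 80 nt the red line has passed 36.9% and the grey line 47.8%. Below 80 nt the lines cross, and the gap between them has opened by that length. The red line stays below the grey one from there up to 1000 nt and crosses it above that length.

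The median intron of a gene was 271.5 nt (CI 111 to 482.5) on chromosome 4 and 98.5 nt elsewhere, with 30 of 42 genes above the common median against 49.7% of the others. The odds ratio was 2.53 (CI 1.25 to 5.44, Fisher's exact test, adjusted p = 0.00897). This call was lost in 5 alternatives, against X alone (median 142 nt, odds ratio 1.36), per isoform (1.60), with isoforms that ended near annotated 3′ ends (1.45), at the upper quartile (2.06) and in an exact rank-sum test (adjusted p = 0.0607). The first intron had a median of 739 nt on chromosome 4 and 323 nt elsewhere (odds ratio 2.02, CI 1.02 to 4.16, exact test, adjusted p = 0.0428), and 6 alternatives ended this call, among them the one within classes of spliced length (1.51).

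No difference in exon length was detectable in the assembled isoforms. The mean internal exon length of a gene had a median of 296 nt on chromosome 4 and 299.3 nt elsewhere (n = 39 and 3062 genes with an internal exon; odds ratio 0.95, CI 0.478 to 1.88, Fisher's exact test, adjusted p = 1). The last exon had a median of 749.5 nt and 661 nt (odds ratio 1.34, CI 0.694 to 2.63, exact test, adjusted p = 0.417). Neither difference passed Fisher's exact test with Benjamini-Hochberg adjustment, and both intervals include an increase and a decrease.

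Spliced transcripts were longer. The median spliced length was 2823.5 nt (CI 2105 to 3197, range 693 to 6715, n = 44) on chromosome 4 and 1921 nt elsewhere, with 31 of 44 genes above the common median against 49.8% (odds ratio 2.41, CI 1.22 to 5.03, exact test, adjusted p = 0.00983). At the upper quartile the odds ratio was 3.66, and with isoforms that ended near annotated 3′ ends the call was lost (odds ratio 1.67, CI 0.684 to 4.35, exact test, adjusted p = 0.342), with 24 genes of chromosome 4 left. Although the libraries were selected for length, 34 of 59 isoforms (57.6%) of chromosome 4 were shorter than 3000 nt, against 78.1% of the others. Exon number, spliced length and summed introns moved together over the genes of chromosome 4, with Spearman coefficients between 0.60 and 0.67, against 0.47 to 0.62 over the others. The points share annotation and assembly, and the coefficients are a description.

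**Figure D3:**
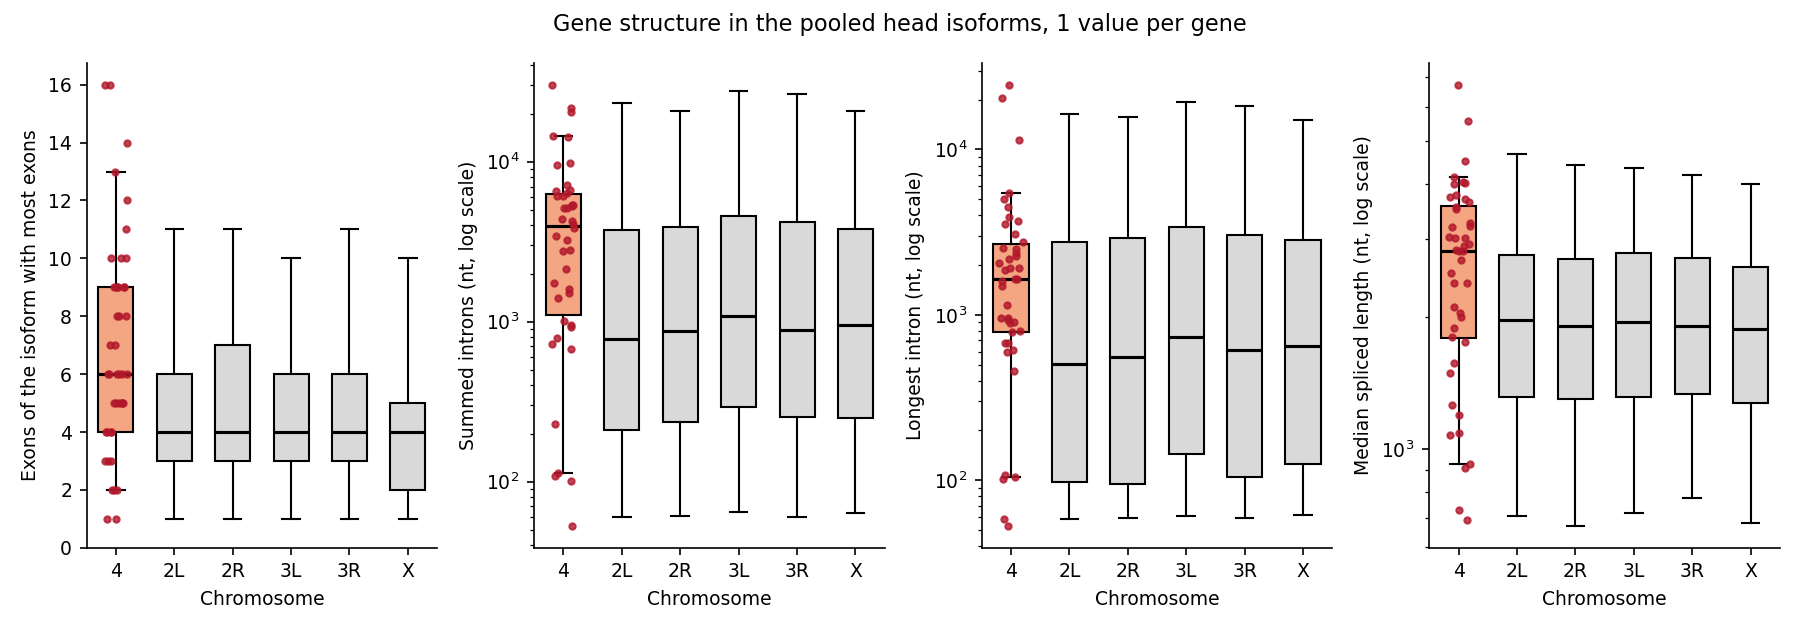
Exon number, summed introns, longest intron and median spliced length per gene (y axes; the 3 lengths in nt on log scales) on chromosome 4 (orange box, each gene a red point) and on 2L, 2R, 3L, 3R and X (grey boxes). Boxes span the quartiles with the median as a line and whiskers reach the 5th and 95th percentiles; the medians of chromosome 4 (6 exons, 3975 nt, 1646.5 nt and 2823.5 nt) stand above those of each other chromosome, while the upper quartile of the longest intron (2691 nt) does not.

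Among the assembled isoforms of the chromosome, those of transcription factor genes held the longest introns. Sox102F, a SOX-family transcription factor, had 5 exons and 30154 nt of summed introns. Mitf, the factor of lysosome and autophagy genes, had 21584 nt, of which 20518 nt was its first intron, while the other introns measured at most 573 nt. zfh2, a zinc-finger homeodomain factor, had 20503 nt with an intron of 11443 nt. toy, a Pax6 gene that acts early in eye development, had 14289 nt in 8 introns. These 4 and CaMKII (14534 nt) were the genes above 10 kb. The zinc-finger factor dati had 9550 nt. The other detected genes of the list of transcription factors and nuclear regulators had smaller sums in their isoforms. These were 7188 nt in the kinase gene Asator, 6086 nt in Hcf, a chromatin cofactor, and 4110 nt in MED26, a subunit of the Mediator complex. No isoform of Hcf, MED26 or zfh2 spanned a whole coding region, so their sums are partial.

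The genes on the lists of synapse, calcium and axon guidance and of signalling ranged between 53 and 6662 nt of summed introns, with CaMKII (14534 nt) on neither list. mGluR, the metabotropic glutamate receptor, had 9 exons and 6662 nt of summed introns in a transcript of 4506 nt. Eph, the receptor of ephrin, had 6101 nt, and its ligand gene Ephrin had 5 exons and 3261 nt. Of the semaphorin receptor genes, the assembled isoform of PlexA had 4 exons (5375 nt of introns) and that of PlexB 5 (4251 nt). The PlexB isoform spanned a whole coding region. The PlexA isoform did not, and ended 4897 nt from the nearest annotated 3′ end. It had 3197 nt, while the longest annotated transcript of PlexA has 10243 nt. The values of PlexA are thus partial, and exon numbers of the whole genes were not compared. PlexB had the longest assembled isoform of the chromosome, 6715 nt, of which its second exon made up 4770 nt. Several genes of the chromosome have longer annotated transcripts, up to 27666 nt in bt. Gat had 2765 nt of introns. In contrast, the isoform of unc-13, the vesicle priming factor, had a single intron of 53 nt and lay inside a gene whose longest annotated transcript has 12914 nt. Of the signalling genes, the adaptor Crk had 1745 nt, the kinase Dyrk3 1593 nt, Slip1 3446 nt and CG1909 3840 nt.

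Genes of general cell functions ranged between 101 and 9843 nt. eIF4G1 had 9843 nt of introns in a transcript of 5575 nt. Pur-alpha, a nucleic acid-binding protein, had 6552 nt and gw 5338 nt. The ribosomal protein gene RpS3A had 101 nt of introns. ATPsynbeta and ND-49, subunits of the mitochondrial ATP synthase and of complex I, had 1006 and 922 nt, and Rad23, a carrier of ubiquitinated proteins to the proteasome, had 721 nt. The zinc transporter Zip102B had 114 nt and the small GTPases Arf4 and Arl4 had 229 and 950 nt. The shortest spliced lengths, as medians over the assembled isoforms of a gene, were 693 nt in Mpv17, 728 nt in CG31997 (678 nt of introns) and 909 nt in RpS3A. Arf4 followed with 929 nt and Zip102B with 1078 nt.

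The remaining genes filled the range in between. The ligands of the TGF-beta family differed, with 1399 nt of introns in myo and 108 nt in mav. The thymine DNA glycosylase gene Tdg had 6398 nt and bt 5108 nt. Below the median stood CG33521 with 2816 nt, Gyf with 2139 nt, the zyxin gene Zyx with 1512 nt and apolpp, the precursor of the lipid carrier lipophorin, with 787 nt. Above it stood anne with 5275 nt, CG32017 with 5158 nt and Cals with 4407 nt. CG11076, without introns, had 1264 nt of exon.

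TE sequence lay in the introns of most genes, as annotated in the reference genome, since insertions of the w1118 stock were not examined. Annotated TEs, 566 on chromosome 4 in all, overlapped an intron in 28 of 42 multi-exon genes (66.7%, CI 51.6 to 79.0), against 269 of 3753 (7.17%) elsewhere. The odds ratio was 25.8 (CI 12.98 to 53.8, Fisher's exact test, adjusted p = 1.21e-21 over 2 tests added after the data were seen). Within 5 classes of summed intron length it was 47.8 (CI 19.2 to 129). TEs made up 40465 of 228651 intron bases (17.7%) on chromosome 4 and 4.53% elsewhere.

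Most TE-bearing introns were long. Of introns of 1000 nt or more, 45 of 60 (75%, CI 62.8 to 84.2) overlapped a TE on chromosome 4, against 10.96% elsewhere, and of shorter introns 12 of 211 (5.69%), against 0.342%. Without TE bases, the summed introns still had a median of 2833.5 nt on chromosome 4 and 876 nt elsewhere (odds ratio 3.71, CI 1.73 to 8.85, exact test, adjusted p = 0.000439). Exons rarely held TE sequence, in 3 of 44 genes (6.82%) on chromosome 4 and 0.971% elsewhere, as a description.

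The TE share of introns varied between genes of the chromosome. It was over 50% in MED26 (67.4%), PlexB (54.2%) and PlexA (50.7%), and reached 42.1% in Dyrk3. Pur-alpha, CaMKII and toy had 31.7%, 31.2% and 31.1%, and Sox102F had 16.6%, or 5016 nt. Mitf, with the second largest summed introns in the assembly of the chromosome, had none, and neither had Gyf, Zyx or myo. The 5 genes with the least intron sequence had none either.

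**Figure D4:**
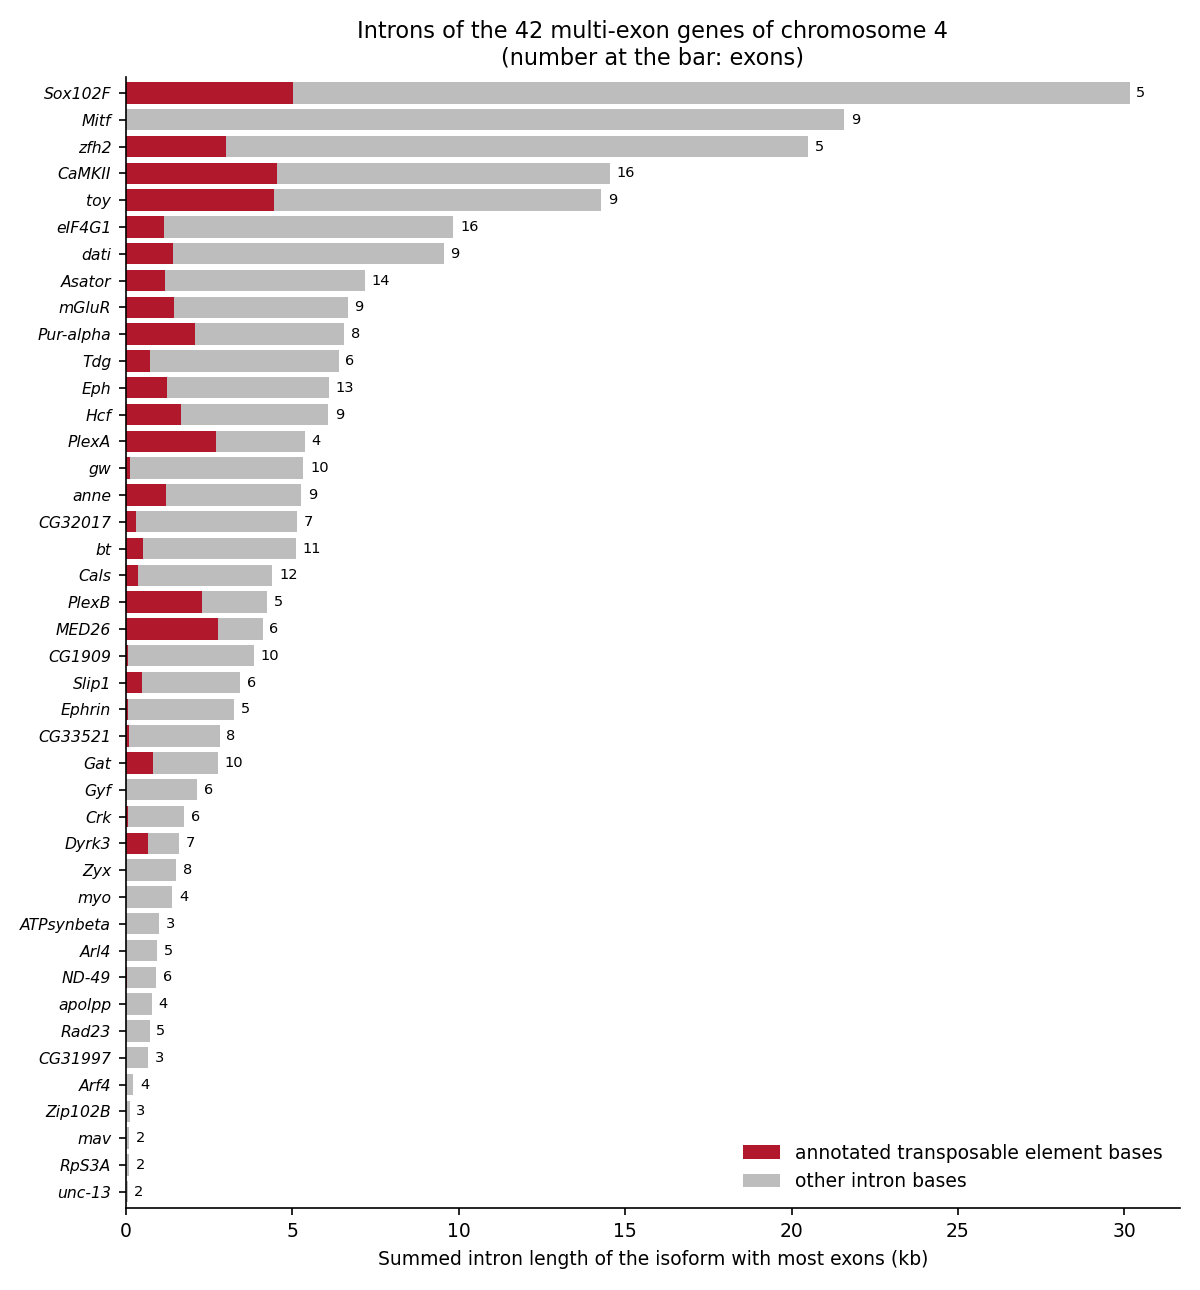
Summed intron length (x axis, kb) of the isoform with most exons for the 42 multi-exon genes of chromosome 4, ordered by length, split into annotated TE bases (red) and other bases (grey), with the number of exons at the end of each bar. Sox102F leads with 30154 nt, Mitf has no red part, and the red part exceeds the grey one in MED26, PlexB and PlexA.

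The number of isoforms per gene did not differ detectably. On chromosome 4, 33 genes had 1 isoform, 9 had 2, 1 had 3 and 1 had 5, a mean of 1.34, against a mean of 1.22 elsewhere. Genes with 2 or more isoforms made up 11 of 44 (25%, against 14.6%; odds ratio 1.94, CI 0.880 to 3.97, Fisher's exact test, adjusted p = 0.105). Alternative TSSs, taken as 5′ ends more than 50 nt apart, were present in 1 of 44 genes (2.27%), gw, against 5.60% elsewhere (odds ratio 0.392, CI 0.00965 to 2.33, exact test, adjusted p = 0.555). At this number of genes neither a higher nor a lower share could be told from the rest.

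Genes with 2 or more separate 3′ ends, counted here as APA, were more frequent in the assembly of chromosome 4. The ends are isoform coordinates and were not checked for internal priming. The study names internal priming as a source of false 3′ ends in most sequencing approaches. With 3′ ends within 150 nt merged into 1 end, 9 of 44 genes (20.5%) had 2 or more, against 7.02% elsewhere (odds ratio 3.40, CI 1.42 to 7.31, Fisher's exact test, adjusted p = 0.0067). They were anne, Rad23, Asator, gw, Sox102F, Gyf, CaMKII, apolpp and Cals. The call was lost with isoforms that ended near annotated 3′ ends, where 2 of 24 genes (8.33%) on chromosome 4 and 2.16% elsewhere had APA (odds ratio 4.12, exact test, adjusted p = 0.232), and within classes of the longest annotated transcript (odds ratio 2.21, CI 0.895 to 4.94, adjusted p = 0.0813).

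The 3′ ends of these isoforms lay farther from annotated ones. Of 44 genes, 23 (52.3%) had an isoform that ended more than 150 nt from every annotated 3′ end of the gene, against 23.9% elsewhere (odds ratio 3.49, CI 1.84 to 6.67, exact test, adjusted p = 0.000187), and in 20 of the 23 no isoform ended closer. The call was lost within classes of the longest annotated transcript (odds ratio 2.27, CI 1.10 to 4.77, exact test, adjusted p = 0.0813). In contrast, 5′ ends matched the annotation within 1 nt in 58 of 59 isoforms (98.3%), against 95.1% elsewhere, in an assembly that keeps only 5′ ends at known promoters. Of the 32 distant 3′ ends on chromosome 4, 28 (87.5%) lay in an annotated exon of the gene, 4 in an annotated intron and 0 beyond the gene (CI up to 10.7%), against 77.2%, 14.9% and 7.92% of 1136 elsewhere.

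Fewer genes of chromosome 4 had an isoform over a whole coding region. This was so for 32 of 44 genes (72.7%), against 90.7% elsewhere (odds ratio 0.274, CI 0.136 to 0.589, Fisher's exact test, adjusted p = 0.000577 over the 2 added tests). Within classes of the longest annotated transcript the odds ratio was 0.463 (CI 0.214 to 1.05, exact test, adjusted p = 0.0813), and the call was lost. The 12 genes without one all had a distant 3′ end. These properties are not independent, since an isoform that stops inside a coding region usually also ends far from annotated 3′ ends. bt ended 43863 nt from the nearest annotated 3′ end, unc-13 19553 nt, zfh2 13955 nt and PlexA 4897 nt. The others were Hcf (3114 nt), MED26 (2478 nt), Tdg (2181 nt), CG33521 (2157 nt), mav (1212 nt) and Ephrin (1133 nt), together with Gyf and apolpp. Exon numbers and intron sums of these genes cover only the part of the gene that the isoforms span.

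Splice chains, the ordered junctions of an isoform, departed from the annotation more often. At least 1 unannotated chain was found in 17 of 42 genes (40.5%), against 18.4% elsewhere (odds ratio 3.01, CI 1.52 to 5.84, exact test, adjusted p = 0.00222). Fully annotated chains made up 30 of 59 isoforms (50.8%) on chromosome 4 and 76.1% elsewhere. The call was lost with isoforms that ended near annotated 3′ ends (odds ratio 3.00, exact test, adjusted p = 0.128) and within classes of the longest annotated transcript (odds ratio 1.74, CI 0.820 to 3.67, adjusted p = 0.178).

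Few of these chains held a junction that is not annotated. In 16 isoforms (27.1%, against 12.1% elsewhere) the chain was part of an annotated one, as in bt, apolpp, Gyf, zfh2, Hcf, PlexA, unc-13 and CG33521. In 7 isoforms (11.9%, against 5.19% elsewhere) annotated junctions stood in a combination of their own, as in dati, Pur-alpha, toy, Zyx, Asator and the longer isoform of CaMKII. Annotated splice sites joined in an unannotated way were found in 1 isoform each of anne, Sox102F and CaMKII (5.08%, against 1.18% elsewhere). In gw, 1 isoform used an unannotated splice site (1.69%, against 0.0204% elsewhere). Of all 271 distinct introns of chromosome 4, 4 were unannotated, against 55 of 15745 elsewhere. These shares are a description, and each class holds few isoforms of chromosome 4.

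The 11 genes with several isoforms differed in how these were built. Sox102F (chr4:800436-834393, minus strand) had 3 isoforms from 1 start. The second skipped an exon of 118 nt and joined its neighbours over an intron of 24531 nt. This intron, the longest assembled on the chromosome, is the unannotated junction of this gene. The third ended in an annotated intron after 3 exons and 1460 nt, 22377 nt before the others.

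CaMKII (chr4:1035288-1053703, minus strand) had isoforms of 16 and 15 exons that shared their start. The shorter lacked an exon of 66 nt, used an acceptor site in the next exon so that this exon had 76 nt and not 79 nt, and ended 1646 nt earlier. Its last exon thus measured 488 nt, against 2134 nt in the longer isoform, and both isoforms spanned a whole annotated coding region.

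gw (chr4:649041-660608, minus strand) was the gene with 2 TSSs, 625 nt apart. Its isoforms joined first exons of 180 nt and 63 nt to the same second exon, over introns of 1920 nt and 1412 nt. The isoform from the upstream start ended 2703 nt before the other and carried the unannotated splice site, 9 nt from the annotated one used by the other isoform.

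bt (chr4:724400-776474, plus strand) had isoforms of 11 and 8 exons with the same start and the same end. They differed by 3 consecutive exons of 142, 201 and 302 nt, which the shorter skipped over an intron of 2531 nt. Both covered 2710 and 2065 nt of a gene whose longest annotated transcript has 27666 nt.

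apolpp (chr4:1060969-1077273, plus strand) had the most isoforms, 5 from 1 start, and all ended 6856 to 10830 nt from the nearest annotated 3′ end. Those of 3655, 2923 and 2551 nt shared 4 exons and ended at different places in the fourth. The isoform of 3433 nt retained the first intron of 61 nt, and that of 407 nt ended in an annotated intron after 2 exons. None of the 5 spanned a whole coding region.

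In Asator and Gyf the shorter isoform ended in an annotated intron. That of Asator had 4 exons against 14 in the longer, ended 8505 nt earlier and retained an intron of 84 nt. That of Gyf had 4 exons and 1334 nt, against 6 exons and 4326 nt, and its first donor site lay 6 nt from that of the longer isoform. In anne the shorter isoform, with 7 exons against 9, ended 4911 nt earlier, included an exon of 110 nt that the longer lacked, and had a second exon of 50 nt, against 46 nt in the longer isoform.

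The other genes differed by small shifts. Rad23 had an acceptor shift of 18 nt and 3′ ends 520 nt apart, both of them annotated. Cals had an acceptor shift of 3 nt and 3′ ends 176 nt apart, and CG1909 had a shift of 27 nt at its first donor site with both ends in common.

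**Figure D5:**
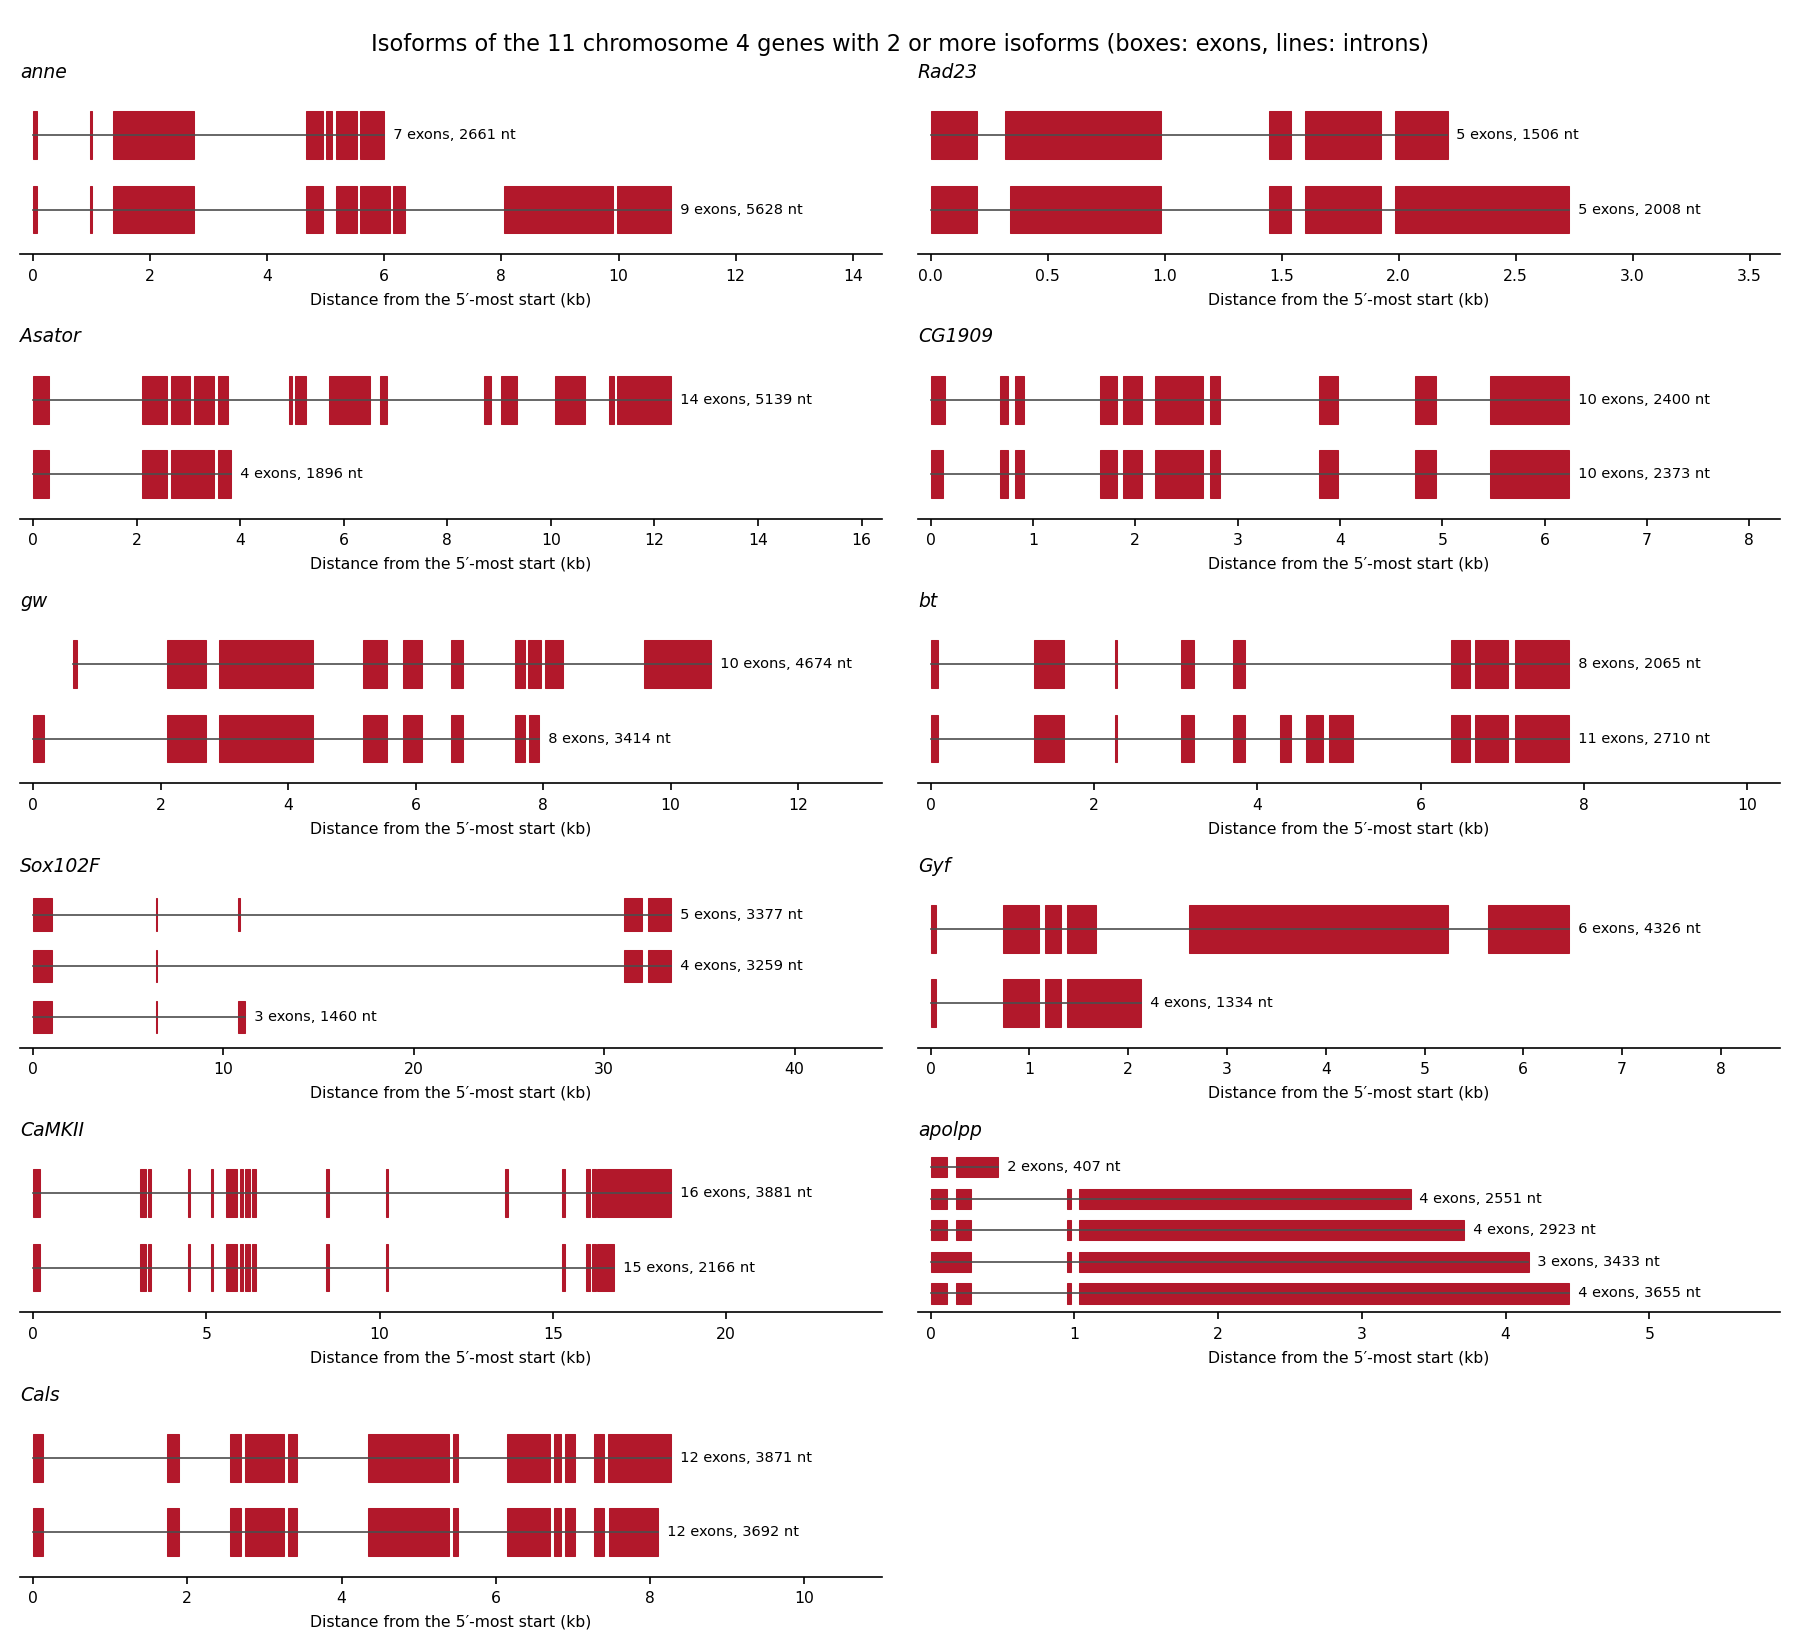
Isoforms of the 11 genes of chromosome 4 with 2 or more isoforms, each drawn to scale in the direction of transcription (x axis, kb from the 5′-most start of the gene; red boxes are exons, lines are introns; the x scale differs between genes). Only gw has starts that differ, 625 nt apart, while anne, Asator, Gyf, Sox102F, apolpp and CaMKII show isoforms that end far apart at the 3′ side.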

How the data were processed

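Total RNA of w1118 heads was made into 3 Iso-seq libraries. The authors derived consensus reads, pooled the libraries, aligned reads to dm6 with STARlong and built isoforms with FLAIR, using short-read junctions and known promoters; the deposited file gives other values than expression, namely exon coordinates without normalization or abundance. The sources used here do not say whether the study's filter on 3′ ends was applied to it.

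The annotation was Ensembl 115 for BDGP6.54 (dm6 coordinates), which is later than the release the authors used; 4035 of 4059 genes matched. Single-exon isoforms took the strand of their gene. Ends were called equal within 1 nt. Intron and exon values came from the isoform with most exons, spliced length from the median over isoforms, and median and longest introns from distinct introns. No genome sequence was used, so 3 planned results on base composition and the polyadenylation signal were not run.

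Genes named are those with 2 or more isoforms, most exons, extreme introns or lengths, unannotated chains, or a place on the role lists; further members are named to account for all 44. Members and lists were chosen with earlier results of these data known. Tests were checked on simulated data. Alternatives changed the chromosomes compared, the isoforms counted, the test, the split and the merging of ends. Python 3.11.15, numpy 2.4.6, scipy 1.17.1, numba 0.67.0 and matplotlib 3.10.9 were used.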

Additional observations from a re-analysis of the deposited data

Results flagged for a closer look

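Beside the isoforms of the 44 genes, 5 isoforms on chromosome 4 had no gene identifier, and the comparisons did not use them. All 5 had a single exon, so that their strand in the file was not read. They lay over PlexB and the antisense RNA gene CR45124 (chr4:42134-43778, 1645 nt with 214 TE bases), over RpS3A (chr4:65549-67207, 1659 nt), over Rnf11 (chr4:314924-317022, 2099 nt), over gw (chr4:658579-660608, 2030 nt) and over CaMKII (chr4:1053467-1053703, 237 nt). Those over PlexB, RpS3A, gw and CaMKII had an end at the same base as the 5′ end of an assembled isoform of that gene. Whether they are unspliced pieces of these genes was not tested. With no control sample and no counts, the level of the 5 isoforms is not known.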

How the results depend on the processing

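Of 107 recomputed values, 87 kept their direction and their side of the threshold, 18 passed it no longer, 1 passed it only in the alternative and 1 reversed. Values are odds ratios unless stated. Median intron length fell below the threshold against X (1.36), near annotated 3′ ends (1.45), at the upper quartile (2.06), per isoform (1.60) and in the exact rank-sum test (chromosome 4 longer in 59.3% of pairs). First intron length did so against X (1.88), near annotated 3′ ends (1.45), within classes of spliced length (1.51), at the upper quartile (1.06), in annotated transcripts of the same genes (1.88) and by rank-sum (56.5% of pairs). Near annotated 3′ ends, spliced length (1.67), APA (4.12) and unannotated chains (3.00) lost their call; within classes of the longest annotated transcript, APA (2.21), unannotated chains (1.74), distant 3′ ends (2.27) and whole coding regions (0.463) did. The longest intron reversed at the upper quartile (0.938). The last exon passed over all annotated protein-coding genes (1.84). The cause was not tested. The alternatives with annotated transcripts, without TE bases and within classes of annotated transcript or summed intron length were chosen after seeing the data. Values from annotated transcripts, of the same genes or of all protein-coding genes, describe the annotation and not the assembled isoforms. In the alternative per isoform, isoforms of a gene share exons and are not independent. Distant 3′ ends could not be recomputed near annotated ends, since none is left there. No paired analysis was possible because the 3 libraries were pooled into 1 file and form 1 group, which also left no replicate to leave out. Counts of genes limit precision, with 44 genes and 24 near annotated 3′ ends on chromosome 4.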
